A study of Saccharomyces cerevisiae with 117 samples.

Results

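Budding yeast daughters part from their mothers by digesting the septum, and the genes whose products do this work are read in a short window from late mitosis into early G1. From the best known genes of this window, 8 were taken by their systematic names from the count table of every cell: SCW11 (YGL028C), CTS1 (YLR286C), DSE4 (YNR067C), EGT2 (YNL327W), DSE2 (YHR143W), DSE1 (YER124C), AMN1 (YBR158W) and ASH1 (YKL185W). Not all of their products digest the septum, since AMN1 and ASH1 encode regulators. They are 8 of the 6420 genes listed, and all 8 were present in the file of every cell. The set rests on known function and no measured value was used to choose it, although earlier results of these data were known when it was chosen.

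Each library holds the RNA of 1 spheroplast of the laboratory strain S288C, a cell taken from log-phase growth whose wall was then removed with Zymolyase. Batch 1 held 20 cells under amino acid starvation (AAS, S medium lacking amino acids), 12 hypotonic cells (S medium lacking sorbitol) and 19 isotonic cells (complete S medium with glucose, amino acids and 1 M sorbitol), and batch 2 held 47 cells under glucose starvation (GS, S medium lacking glucose) and 19 isotonic cells. All cells descend from 1 clone and carry no engineered allele, all were wall-less, and the exposure is 0.5 to 5 h in the labels, with a shorter upper limit in the methods text, and is not stated per cell. The question for these genes is which single cells carry the separation program, and how AAS and hypotonic cells of batch 1 compare with isotonic cells of batch 1, and GS cells (names in Y5) with isotonic cells (names in Y7) of batch 2. No separate cultures are named, so each group counts as 1 sample and no test between groups was run. Comparisons use the cells that the study kept. In batch 1 these are 18 AAS, 12 hypotonic and 16 isotonic cells, and in batch 2 they are 21 GS and 17 isotonic cells. Values are read counts per 1000000 reads on genes of the cell (CPM), and a ± is the standard deviation over cells. A 2-fold difference in mean CPM, after adding 1 CPM to both means, is a rule of size only.

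The genes for septum digestion are turned on in daughters at mitotic exit, and the RAM network with its kinase Cbk1 is needed for this. The transcription factor Swi5 enters the nuclei of mother and daughter alike at that time and drives part of late mitotic transcription. CTS1 encodes the chitinase that cleaves the chitin of the primary septum, DSE4 an endo-1,3-beta-glucanase, SCW11 and DSE2 secreted proteins related to glucanases, and EGT2 an anchored wall protein needed for clean separation. DSE1 encodes a daughter-specific protein of wall metabolism, AMN1 an antagonist of the mitotic exit network that acts in daughters, and ASH1 a repressor of mating-type switching whose mRNA is carried to the bud tip. All 8 genes have 1 coding exon, none overlaps another annotated gene, and their coding lengths run from 978 bases in DSE2 to 3354 bases in DSE4.

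The core of the sequence that Swi5 prefers is CCAGC, and it was searched on both strands, where the opposite strand reads GCTGG. Within 500 bases before the start codon, 7 of the 8 genes (87.5%) hold at least 1 core, against 35.8% of the 5978 yeast genes with such a window. At least 3 cores lie in this window in 37.5% of the 8 genes, against 2.16% of all genes. DSE1 holds 5 cores, EGT2 4, DSE4 3, DSE2 2, and SCW11, AMN1 and ASH1 1 each, while the letters are absent from the window of CTS1. The longer form ACCAGC, which contains the core, occurs in 50.0% of the 8 genes and in 13.2% of all genes. In the shorter window from 250 bases before to 50 bases after the start of the coding sequence, 50.0% of the 8 genes and 22.7% of 5979 genes hold a core. A match describes the letters only, and no binding was measured in these cells.

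The upstream stretches of the 3 genes with the most cores are shown, as those in which the core recurs most. Each runs 5′ to 3′ along the strand of its gene over the distal 300 of the 500 bases before the start codon in the RefSeq R64 sequence, with cores in capitals. They lie at chrV:409264-409563 (minus strand) for DSE1, chrXIV:23548-23847 (plus strand) for EGT2 and chrXIV:759300-759599 (minus strand) for DSE4.
DSE1: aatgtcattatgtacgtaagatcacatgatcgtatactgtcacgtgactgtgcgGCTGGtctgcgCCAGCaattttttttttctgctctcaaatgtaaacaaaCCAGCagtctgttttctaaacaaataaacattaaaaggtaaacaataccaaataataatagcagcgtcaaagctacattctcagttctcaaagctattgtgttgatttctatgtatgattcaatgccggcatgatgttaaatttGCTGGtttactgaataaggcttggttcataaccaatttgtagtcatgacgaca
EGT2: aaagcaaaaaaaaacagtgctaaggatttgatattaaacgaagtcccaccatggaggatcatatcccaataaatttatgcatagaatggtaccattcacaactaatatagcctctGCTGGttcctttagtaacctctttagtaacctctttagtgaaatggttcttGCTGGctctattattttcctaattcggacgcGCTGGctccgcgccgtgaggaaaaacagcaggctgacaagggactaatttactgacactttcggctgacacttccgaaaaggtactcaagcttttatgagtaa
DSE4: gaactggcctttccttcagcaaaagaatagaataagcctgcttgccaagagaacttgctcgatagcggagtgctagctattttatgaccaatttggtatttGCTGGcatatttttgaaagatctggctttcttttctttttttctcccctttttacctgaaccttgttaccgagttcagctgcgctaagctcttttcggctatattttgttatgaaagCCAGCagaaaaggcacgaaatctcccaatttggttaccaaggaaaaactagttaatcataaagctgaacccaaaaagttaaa
The DSE1 stretch holds 4 cores, which begin 446, 435, 397 and 253 bases before the start codon. The EGT2 stretch holds 3, at 385, 334 and 303 bases, and the DSE4 stretch 2, at 399 and 282 bases. The remaining core of each gene begins nearer to the coding sequence, at 198 bases in DSE1, 197 in EGT2 and 193 in DSE4.

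Depth and gene detection differed between the groups. Reads on genes had a median of 5343940 in the AAS cells, 5967380 in the hypotonic cells and 6356350 in the isotonic cells of batch 1, and genes with a read had medians of 5117.5, 3255 and 4149.5 in the same order. In batch 2 the medians were 1607920 reads and 1332 genes in GS cells, and 433165 reads and 1047 genes in isotonic cells. Within the isotonic cells of batch 1, the 9 cells with names in A and the 7 with names in E or G stood apart, with medians of 12465200 and 5342160 reads and of 5082 and 2786 genes. The labels give these cells the same treatment and do not explain the letters.

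In cells of batch 1 the separation genes were carried by some cells and almost absent from others in every group. Counting a gene as carried at 10 CPM or more, the number of the 8 genes carried per cell ran from 0 to 8 with a median of 4 in AAS cells, from 0 to 7 with a median of 2.5 in hypotonic cells, and from 0 to 7 with a median of 1 in isotonic cells. At least 4 of the 8 were carried by 10 of 18 AAS cells (55.6%, exact Clopper-Pearson 95% interval 30.8 to 78.5%), by 4 of 12 hypotonic cells (33.3%, 9.92 to 65.1%) and by 5 of 16 isotonic cells (31.2%, 11 to 58.7%). The intervals cover the counting of cells only and say nothing of the spread between cultures, so they are no comparison of the conditions. On average AAS cells had 64.4% of all genes at 10 CPM or more, hypotonic cells 38.4% and isotonic cells 37.5%.

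The AAS cells D30 and D91X were the 2 cells that carried all 8 genes. D30 held 18.5 CPM of SCW11, 207.8 of CTS1, 33.2 of DSE4, 85.9 of EGT2, 57.7 of DSE2, 91.4 of DSE1, 140 of AMN1 and 181 of ASH1. In D91X the 8 levels lay between 23.3 CPM of SCW11 and 118 CPM of CTS1. These cells also had 5986 and 5856 genes with a read, the 2 highest numbers of batch 1. Exactly 7 genes were carried by the AAS cells D3 and D9, the hypotonic cells C81X and F3X and the isotonic cells A23 and A26. In D9 the missing gene was EGT2 (0.40 CPM), in A23 and A26 it was DSE4 (2.92 and 0.56 CPM), and in F3X SCW11 had 0 reads. The other extreme held 2 AAS, 1 hypotonic and 5 isotonic cells with none of the 8 at 10 CPM.

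The count of separation genes followed the breadth of the library. Across the 46 cells of batch 1, the number carried had a Pearson r of 0.71 with the number of genes with a read, and r was 0.76 in 18 AAS, 0.83 in 12 hypotonic and 0.66 in 16 isotonic cells. The points share libraries and depth, and the value is a description. If a cell carried the 8 genes as often as it carries any gene at 10 CPM, AAS cells would carry 5.15 of them on average, hypotonic cells 3.07 and isotonic cells 3.00, against 4.11, 2.92 and 2.38 counted. More specifically, 7 of 18 AAS, 5 of 12 hypotonic and 5 of 16 isotonic cells carried more than their own gene share gives. When each cell was thinned to 100000 reads, the median numbers with a read were 4 in AAS, 2.5 in hypotonic and 2 in isotonic cells.

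**Figure D1:**
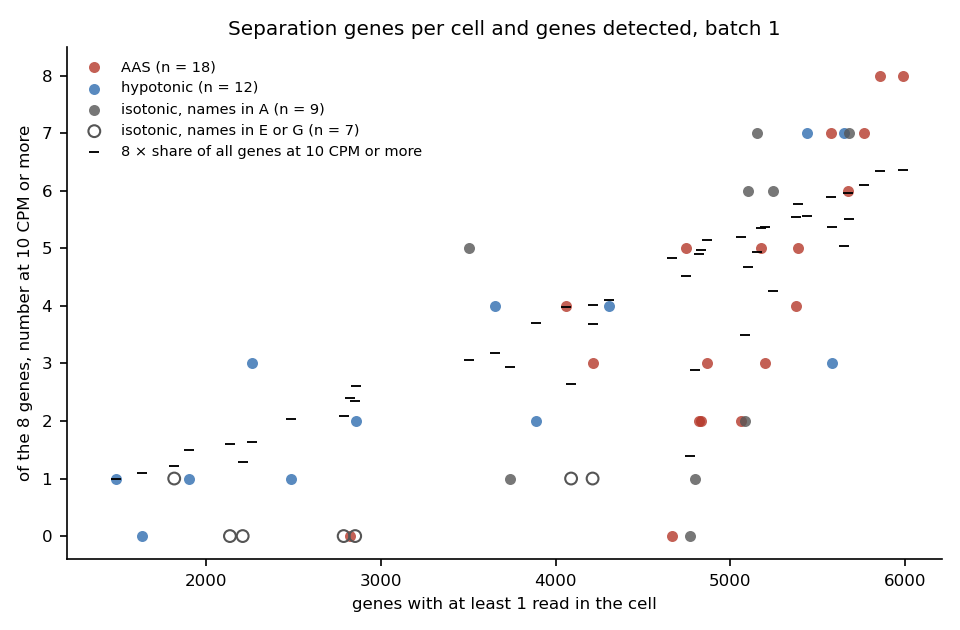
Number of the 8 separation genes at 10 CPM or more (y axis) against how many genes had a read (x axis) in each of the 46 kept cells of batch 1, with AAS cells in red, hypotonic cells in blue and isotonic cells in grey (open circles for names in E or G). Black dashes give 8 times the cell's share of all genes at 10 CPM or more. The 2 AAS cells with all 8 genes lie at the right edge, and the 7 open circles lie at 0 or 1.

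The isotonic cells split by their names. Among the 9 with names in A, 5 carried at least 4 of the genes and the median was 5, whereas the 7 with names in E or G carried 0 or 1. Of those 7 cells 4 carried none, and the others carried a single gene each, DSE2 at 32.2 CPM in E10X, AMN1 at 374 CPM in E11X and SCW11 at 1330 CPM in G56. CTS1, EGT2, DSE1 and ASH1 had 0 reads in all 7, although these cells had 3603505 to 5748785 reads on genes. Their share of all genes would give 2.12 of the 8 genes per cell, against a mean of 0.43 counted, while the cells with names in A would carry 3.68, against 3.89 counted. Thinned to 100000 reads, the medians were 5 in cells with names in A and 0 in those with names in E or G. Every comparison with isotonic cells of batch 1 therefore rests on a mixed set of cells.

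Cells also differed in which of the genes they carried. The isotonic cell A25 held 189 CPM of DSE4 and 432 CPM of ASH1 but 0.09 CPM of SCW11 and 0.63 CPM of DSE1. Another isotonic cell, A29, held 566 CPM of ASH1, 272 CPM of CTS1 and 162 CPM of DSE2, with 0 reads of SCW11, DSE4 and DSE1. A34 had reads of 7 of the 8 genes but none above 1.63 CPM, with 4767 genes detected. Among hypotonic cells, F24X held 703.3 CPM of DSE4 and no read of the other 7, F22X 792 CPM of ASH1 with no other gene above 4.68 CPM, and F23X no read of any. CTS1 made up 88.9% of the summed level in F21X, at 2034 CPM.

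**Figure D2:**
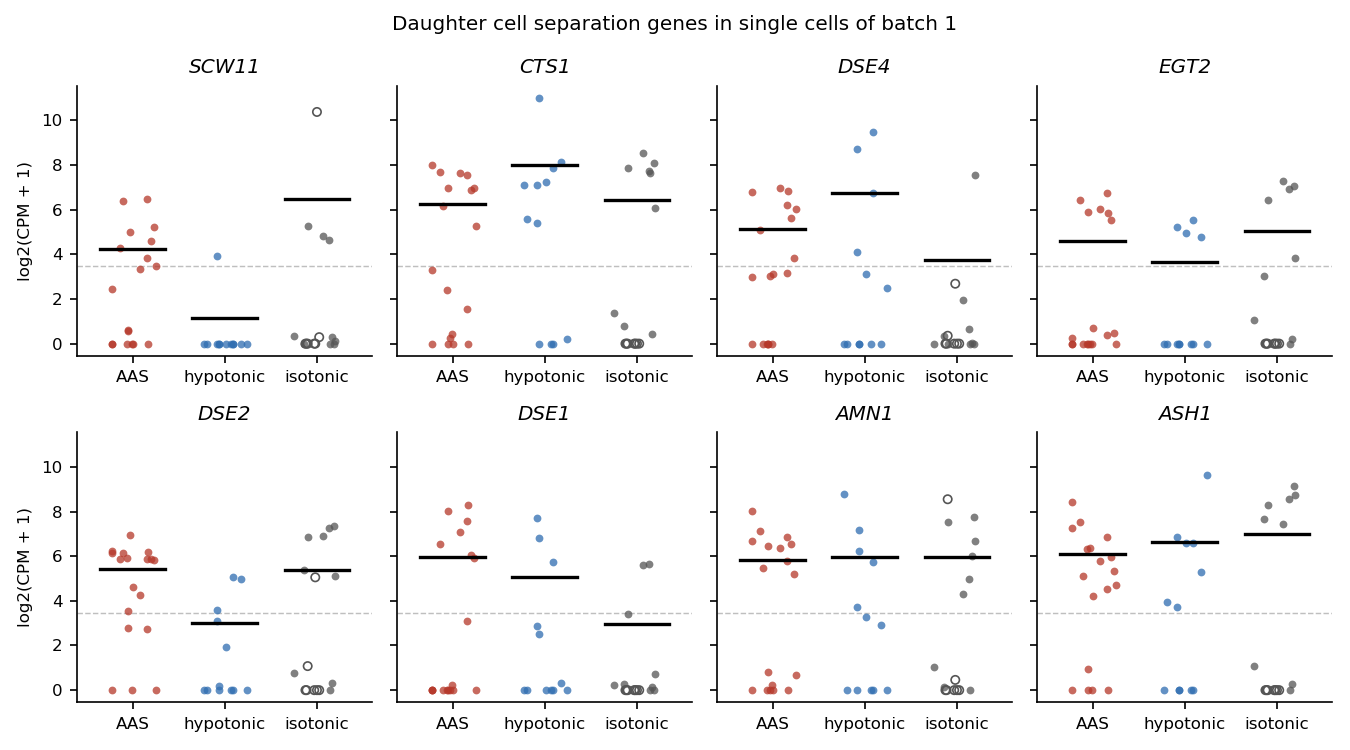
Level of each gene, as log2(CPM + 1) on the y axis, in single cells of batch 1 (1 point per cell, 18 AAS, 12 hypotonic and 16 isotonic cells from left to right, open circles for isotonic names in E or G). The black bar is the mean CPM on the same scale and the dashed line marks 10 CPM. DSE1 in 7 AAS cells lies above every isotonic cell, and the isotonic bar of SCW11 is set by 1 open circle at 1330 CPM.

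Across batch 1, the wall enzymes and the regulators did not move as a block under AAS. DSE1 and DSE4, 2 of the 8 genes, were at least 2-fold higher in AAS than in isotonic cells by mean CPM, and 1, SCW11, was at least 2-fold lower. All 8 passed the filter of a read in 20% or more of these cells, and of the 5825 genes that passed, 43.2% were higher and 13.8% lower by that rule, so both counts of separation genes stood near or below the background. The median log2 fold change was -0.16 over the 8 genes and 0.74 over all 5825.

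DSE1 differed most under AAS. It ran from 0 to 314 CPM with a median of 0.09 in AAS cells and from 0 to 49.5 CPM with a median of 0 in isotonic cells. It was carried by 7 of 18 AAS cells, led by D93X (314 CPM), D94X (261 CPM) and D19 (189 CPM), against 2 of 16 isotonic cells, A26 and A23, and all 7 exceeded the highest isotonic cell, although the groups overlapped at low levels. The means were 62.4 ± 99.0 CPM in 18 AAS cells and 6.75 ± 16.6 CPM in 16 isotonic cells. Their log2 fold change was 3.03, which was 3.31 without the highest cell of each group and 2.28 against isotonic cells with names in A. As a difference of mean log2 values it was 1.94, near the median of 1.97 over all genes by that measure. The shares of cells that carried DSE1, 38.9% and 12.5%, stood below the 64.4% and 37.5% of all genes carried in AAS and isotonic cells.

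DSE4, the endoglucanase, ran from 0 to 123 CPM with a median of 7.85 in AAS cells and from 0 to 189 CPM with a median of 0 in isotonic cells. It was carried by 8 of 18 AAS cells, against 1 of 16 isotonic cells, A25, beside 64.4% and 37.5% of all genes carried in these groups. The means were 33.7 ± 43.9 CPM in AAS cells and 12.4 ± 47.1 CPM in isotonic cells, with a log2 fold change of 1.37 that became 4.17 without the highest cell of each group and 0.63 against isotonic cells with names in A. The isotonic mean of DSE4 thus came almost wholly from 1 cell, and the size of its difference was not stable to the choice of cells.

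SCW11 had a lower mean under AAS, which rested on 1 isotonic cell. Its level ran from 0 to 87.1 CPM with a median of 6.87 in AAS cells and from 0 to 1330 CPM with a median of 0.04 in isotonic cells. More AAS than isotonic cells carried it, 8 of 18 against 4 of 16, beside 64.4% and 37.5% of all genes carried in these groups. The means of 17.7 ± 27.1 CPM in AAS cells and 88.7 ± 331 CPM in isotonic cells gave a log2 fold change of -2.26. The isotonic cell G56 alone set that value, since the next isotonic cell, A28, had 38.1 CPM and the direction turned to 1.06 when the highest cell was left out of both groups. The median over all genes compared was 1.24 in that setting.

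The other 5 genes stayed within 2-fold between AAS and isotonic cells. For CTS1 the means were 74.7 ± 89.3 CPM under AAS and 85.2 ± 127 CPM under isotonic medium, for AMN1 55.9 ± 68.9 and 61.7 ± 108 CPM, and for EGT2 23.4 ± 36.1 and 32.3 ± 56.1 CPM. DSE2 was nearly level between AAS (42.2 ± 35.2 CPM) and isotonic cells (40.9 ± 59.6 CPM) and was carried by 13 of 18 AAS cells (72.2%, interval 46.5 to 90.3%) and 7 of 16 isotonic cells (43.8%, 19.8 to 70.1%), which is near the 64.4% and 37.5% of all genes carried in these groups. ASH1 was carried by 13 of 18 AAS and 6 of 16 isotonic cells, again near those shares, with means of 67.2 ± 87.5 and 128 ± 191 CPM and medians of 36.9 and 0.11 CPM. For these 5 genes the standard deviation over cells was near or above the mean in both groups. Against isotonic cells with names in A only, ASH1, EGT2 and CTS1 passed 2-fold lower in AAS, with log2 fold changes of -1.75, -1.26 and -1.01, and DSE1 was the one gene at least 2-fold higher. Against the 7 isotonic cells with names in E or G the directions were the opposite, with CTS1, ASH1 and EGT2 at least 952-fold, 793-fold and 318-fold higher in AAS on summed reads, taking 3 reads over those cells as the floor (counting error only, with PCR copies not told apart), and DSE2 higher with a log2 fold change of 2.91. The AAS cells also split for ASH1, which was carried by 12 of 13 cells with names without X (log2 fold change -0.54) and by 1 of 5 with an X (log2 fold change -3.25). That 1 cell was D91X at 62.0 CPM. All genes carried were 67.9% in cells without X and 55.2% in cells with an X.

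**Figure D3:**
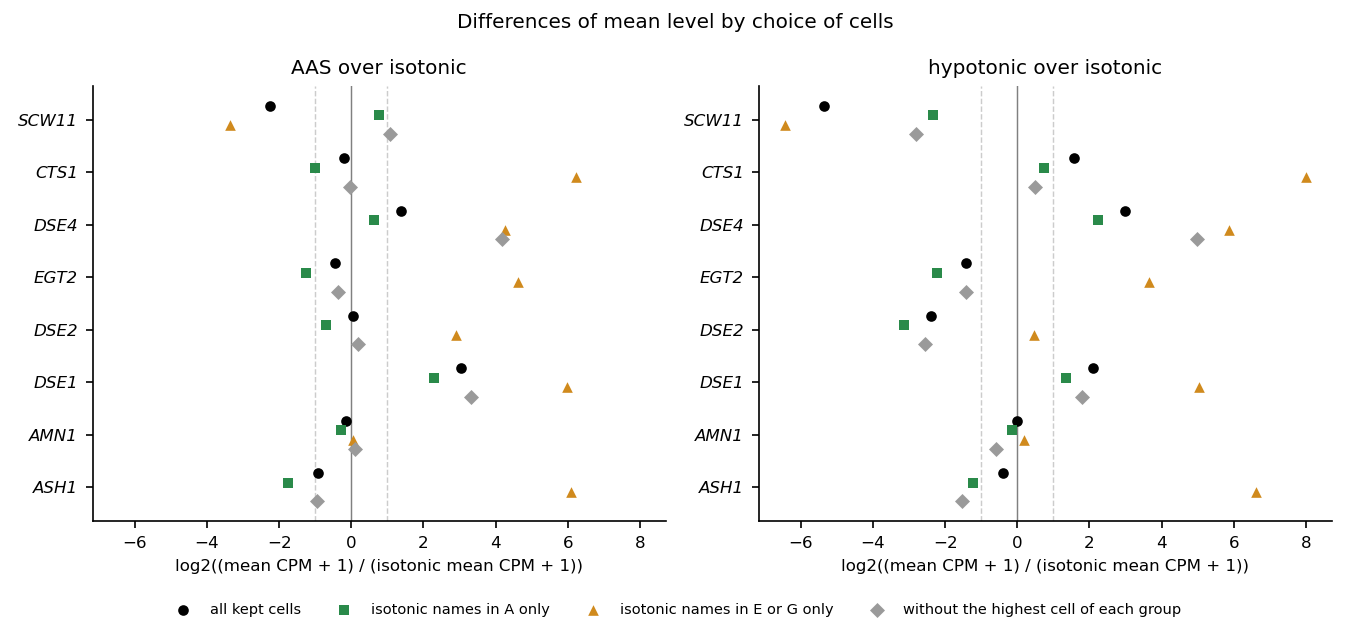
Log2 ratio of mean CPM + 1 (x axis) of each gene (y axis) in AAS over isotonic cells (left) and hypotonic over isotonic cells (right), for all kept cells (circles), isotonic cells with names in A only (squares) or in E or G only (triangles), and without the highest cell of each group (diamonds); dashed lines mark 2-fold. Triangles of CTS1, EGT2, DSE1 and ASH1 are set against 0 reads and depend on the 1 CPM added. SCW11 under AAS changes side, from -2.26 to 1.06 without the highest cells.

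Under the hypotonic condition the 8 genes split evenly. DSE4, DSE1 and CTS1 were at least 2-fold higher in hypotonic than in isotonic cells, SCW11, DSE2 and EGT2 at least 2-fold lower, and AMN1 and ASH1 within 2-fold. Of the 5600 genes that passed the filter here, 21.2% were higher and 30.1% lower by the 2-fold rule, and the median log2 fold change was -0.20 over the 8 genes and -0.26 over all genes compared. With 8 genes, 3 in each direction is not far from these shares.

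The 3 higher means came from few cells. DSE4 ran from 0 to 703.3 CPM with a median of 2.34 in hypotonic cells and from 0 to 189 CPM with a median of 0 in isotonic cells. Mean DSE4 was 105 ± 224 and 12.4 ± 47.1 CPM in these groups (log2 fold change 2.99, or 4.99 without the highest cells), and 4 of 12 hypotonic against 1 of 16 isotonic cells carried it. Mean CTS1 was 255 ± 568 CPM in hypotonic cells and 85.2 ± 127 CPM in isotonic cells. F21X with 2034 CPM lay far above the next hypotonic cell, F9X with 281 CPM, and with the top cell of both groups left out the log2 fold change of CTS1 was 0.50, against 1.57 with them. Even so, 8 of 12 hypotonic and 6 of 16 isotonic cells carried the chitinase gene, beside 38.4% and 37.5% of all genes carried in these groups. Mean DSE1 was 32.1 ± 65.2 CPM in hypotonic cells and 6.75 ± 16.6 CPM in isotonic cells (log2 fold change 2.09), from 3 of 12 and 2 of 16 cells, and all 3 hypotonic cells exceeded the highest isotonic cell.

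SCW11 was carried by 1 of 12 hypotonic cells, C81X at 14.3 CPM, and had 0 reads in the other 11. Its 94 reads in hypotonic cells, all from C81X, stood against 7891 in isotonic cells, of which 6769 came from cells with names in E or G, nearly all from G56. The log2 fold change was -5.36, and -2.80 without the highest cell of each group. Mean DSE2 was 7.0 ± 11.9 CPM in hypotonic cells and 40.9 ± 59.6 CPM in isotonic cells (log2 fold change -2.39), with 3 of 12 and 7 of 16 cells carrying it. EGT2 averaged 11.5 ± 17.6 and 32.3 ± 56.1 CPM (log2 fold change -1.41), with 4 of 12 hypotonic and 5 of 16 isotonic cells. Both signs depended on the isotonic cells with names in A, since DSE2 and EGT2 were higher in hypotonic cells when set against names in E or G, where EGT2 had 0 reads.

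The regulators AMN1 and ASH1 showed single cells at high level. Mean AMN1 was 61.5 ± 128 CPM in hypotonic cells and 61.7 ± 108 CPM in isotonic cells, and its highest cells were F55X at 444 CPM and E11X at 374 CPM. Mean ASH1 was 97.1 ± 223 CPM in hypotonic cells and 128 ± 191 CPM in isotonic cells, with F22X at 792 CPM and A29 at 566 CPM, and was carried by 7 of 12 and 6 of 16 cells. Its log2 fold change of -0.40 became -1.52 without the highest cells and -1.23 against isotonic cells with names in A, both more than 2-fold lower, whereas against names in E or G it was at least 1115-fold higher on summed reads by the same floor.

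Relative to coding length, the order of the 8 genes differed between conditions. The paper reports coverage that fell toward the 5′ end of genes in every library. Division by coding length does not allow for this. In AAS cells CTS1, DSE2, ASH1, DSE1 and AMN1 lay together between 33.9 and 44.2 mean CPM per kb, above SCW11, DSE4 and EGT2 at 7.49 to 10.9. In hypotonic cells CTS1 stood first at 151 mean CPM per kb, followed by ASH1 at 54.9, and SCW11 was last at 0.73. Single cells weighed on both leaders there. Mean CTS1 was 255 CPM and 93.4 CPM without F21X, and mean ASH1 was 97.1 CPM and 33.9 CPM without F22X. In isotonic cells of batch 1 ASH1 stood first at 72.7 mean CPM per kb, with SCW11 at 54.5, which was 3.67 without G56, and CTS1 at 50.5, and DSE1 and DSE4 were last at 3.92 and 3.70. Neighbours in each order differed by less than the spread over cells.

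In batch 2 the program was almost undetected. None of 21 GS cells and 1 of 17 isotonic cells carried 4 of the 8 genes. At the breadth of these libraries few could be seen. The share of all genes at 10 CPM would give 0.90 of the 8 genes per GS cell and 0.97 per isotonic cell. The means counted were 0.43 and 0.65. The share of cells with the program was not measurable at this breadth. None of the 8 was carried by 14 GS and 10 isotonic cells. In 5 GS and 5 isotonic cells a single gene was carried. The exception was the isotonic cell Y706, with 936 CPM of SCW11, 210 CPM of EGT2, 101 CPM of DSE2 and 26.6 CPM of CTS1 from 715458 reads on genes.

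CTS1 was the one gene of the 8 that passed the 20% filter in batch 2, and it was at least 2-fold higher in GS cells. It ran from 0 to 1545 CPM in GS cells and from 0 to 797 CPM in isotonic cells, with a median of 0 in both. The GS cells Y507, Y516 and Y511 held 1545, 1334 and 947 CPM, above the highest isotonic cell, Y719 at 797 CPM, and 4 of 21 GS and 4 of 17 isotonic cells carried it. In 1 of these isotonic cells, Y718, the 70.2 CPM came from 1 of 14245 reads on genes. The means were 183 ± 467 CPM under GS and 56.7 ± 192 CPM in the isotonic cells, and the log2 fold change was 1.67. That value rested on few cells, and was 3.34 without the highest cell of both groups, 0.99 (just within 2-fold) with cells thinned to 100000 reads, and 0.13 as a difference of mean log2 values. Of the 2106 genes that passed the filter in batch 2, 44.1% were higher and 26.2% lower in GS cells by the 2-fold rule.

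The remaining 7 genes were read in too few cells for a comparison of groups. DSE2 was carried by the GS cells Y508 (586 CPM) and Y510 (87.7 CPM) and by the isotonic cells Y706 and Y708. AMN1 was carried by the GS cells Y508 (307 CPM) and Y514 (184 CPM) and by the isotonic cell Y701 (22.4 CPM). SCW11 was carried by 1 cell in each group, Y515 at 348 CPM under GS and Y706 at 936 CPM. EGT2 had 0 reads in GS cells and 177 in isotonic cells, where 3 of 17 cells had a read. On summed reads it was at least 275-fold lower in GS, with 3 reads over the group as the floor. But 150 of those 177 reads came from Y706, and without that cell the bound was 46.5-fold. That second bound rested on Y703 with 26 reads and Y708 with 1. ASH1 stayed below 4.26 CPM in every GS cell and reached 33.5 CPM in the isotonic cell Y703. DSE4 had no read in either group, and DSE1 had 0 reads under GS and 1 in isotonic cells.

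**Figure D4:**
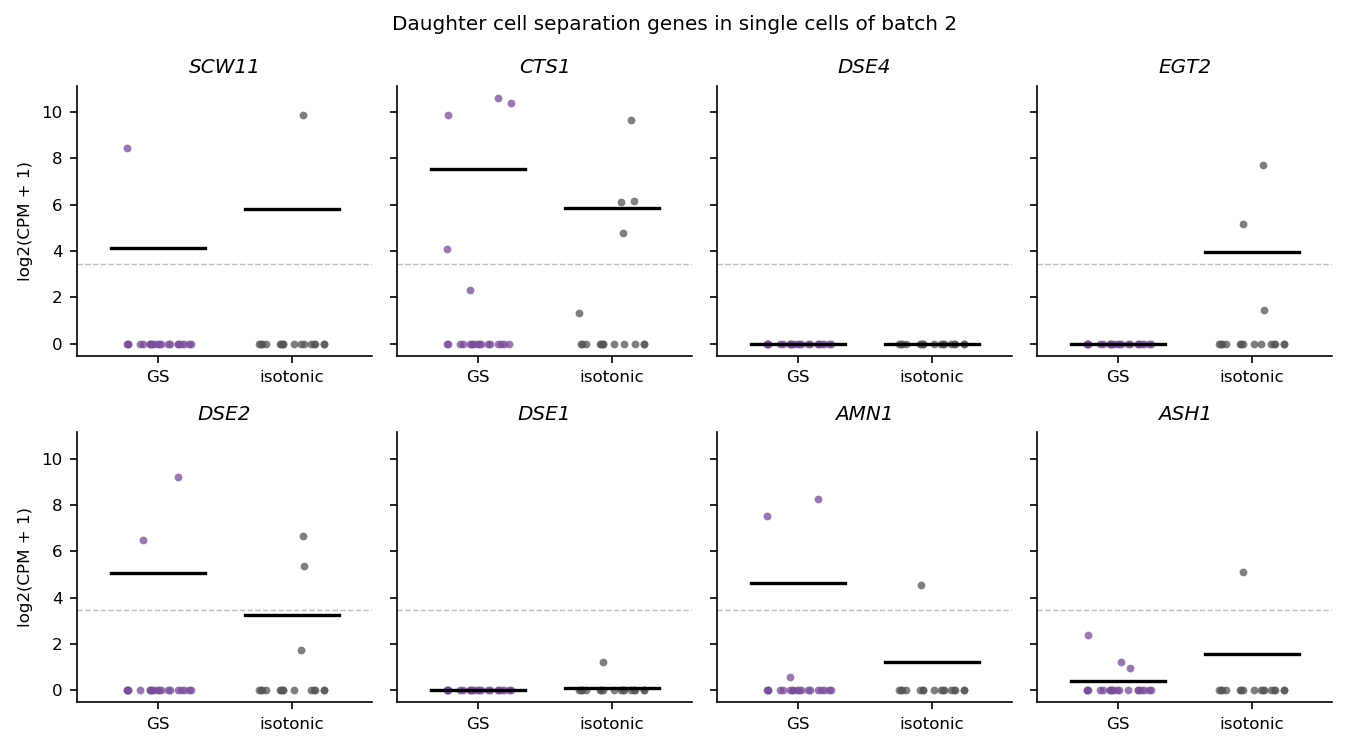
Level of each gene, as log2(CPM + 1) on the y axis, in the 21 GS cells (left) and 17 isotonic cells (right) of batch 2 that the study kept, with 1 point per cell. The black bar is the mean CPM on the same scale and the dashed line marks 10 CPM. Most cells lie at 0 for every gene, and CTS1 has the most cells above the line, 4 in each group.

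The genes went together across cells only loosely. Over the 46 cells of batch 1, after group means and a linear term in the number of genes with a read had been removed, the 28 pairs of genes had Pearson r between -0.15 and 0.50 with a median of 0.21, and 25 of the 28 were positive. EGT2 and DSE1 had the highest value (0.50), followed by DSE2 with ASH1 and CTS1 with EGT2 (0.43 each). Of the 15 cells that carried EGT2, 14 also carried CTS1, while 9 of the 23 cells with CTS1 lacked EGT2. CTS1 and DSE4, both enzymes that act on the septum, had the lowest value (-0.15). Against the mean of the other 7, EGT2 reached 0.58, DSE1 0.51, CTS1 0.44 and DSE2 0.41. ASH1, SCW11 and AMN1 lay between 0.24 and 0.30, and DSE4 had 0.06. The 5773 single genes outside the set had a median r of 0.07 with the mean of the whole set, with a 95% point of 0.34. EGT2, DSE1, CTS1 and DSE2 lay above that point, and ASH1, SCW11, AMN1 and DSE4 lay below it. No background for pairs of other genes is given here, so the count of positive pairs stands alone. The cells share libraries, depth and many zeros, and these values are descriptions.

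**Figure D5:**
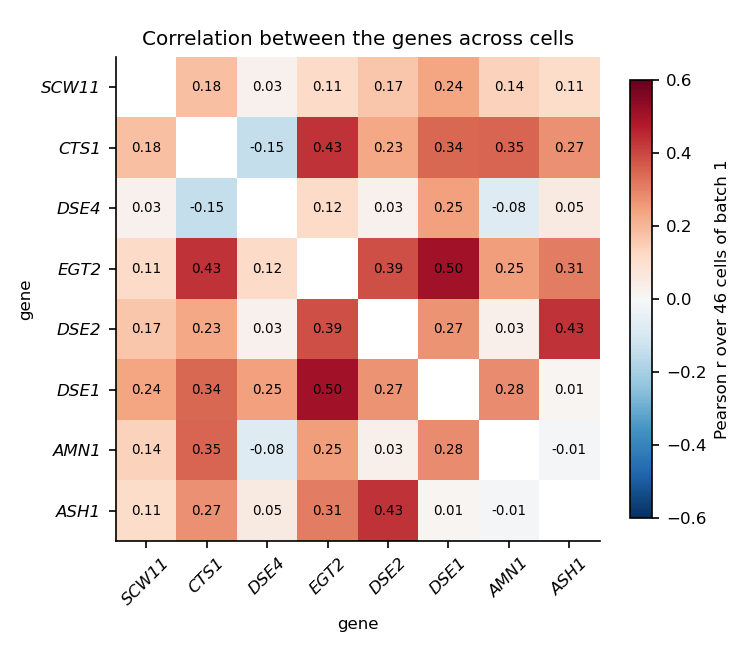
Pearson r between each pair of the 8 genes over the 46 kept cells of batch 1, from log2(CPM + 1) after group means and the number of genes with a read were removed (both axes list the genes, the colour scale gives r). The darkest cell joins EGT2 and DSE1 at 0.50, and the one clearly negative value joins CTS1 and DSE4 at -0.15.

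Among the 9 lists, the other genes of late mitosis and early G1 ran most with the set. The mean of 16 further genes of late mitosis and early G1, SIC1 and NIS1 among them, had r = 0.58 with the mean of the 8 genes over the 46 cells, and a list of 12 G2/M genes had 0.46. A list of wall glucanases and glucan transferases outside the set had 0.33, the mitotic exit network 0.32, the RAM network 0.29 and septum building 0.17. The genes that carry ASH1 mRNA had 0.03, 12 G1/S genes 0.01 and 9 histone genes -0.06. No background for means of other gene lists is given here, so these list values are descriptions. SWI5 mRNA had 0.31, below the 95% point of 0.34 for single genes outside the set. The 5 single genes with the highest r outside the set were NUP192 (0.63), YLR278C (0.62), snR83 (0.60), YRO2 (0.59) and SAC3 (0.57), and the leaders varied with the cells and terms used.

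The transcript of SWI5 itself had a higher mean in AAS cells. It ran from 0 to 668 CPM with a median of 27.01 in AAS cells, from 0 to 78.6 CPM with a median of 0 in hypotonic cells and from 0 to 37.6 CPM with a median of 0 in isotonic cells. Its mean was 100.1 ± 185 CPM in AAS cells and 3.89 ± 9.60 CPM in isotonic cells (log2 fold change 4.37), with 11 of 18 and 2 of 16 cells at 10 CPM. In the AAS cell D7, SWI5 had 506.04 CPM while CTS1 had 0.18 CPM and EGT2 0 reads, and in D19 SWI5 had 0 reads while 5 of the 8 genes were carried. High SWI5 mRNA and carried separation genes were thus not in the same cells throughout.

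Under AAS the wider division lists held more higher than lower genes. Of the 10 RAM genes, 6 were at least 2-fold higher and 0 lower, with TAO3, a scaffold of the network, at 448 ± 226 CPM in AAS cells and 84.1 ± 113 CPM in isotonic cells. Of the 16 other genes of late mitosis and early G1, 9 were higher and 2 lower, among them SIC1, the inhibitor of S-phase cyclin kinase (90.2 ± 60.7 and 9.30 ± 16.3 CPM), NIS1 (55.1 ± 56.95 and 4.32 ± 11.6 CPM) and BUD9 (105 ± 99.6 and 15.8 ± 40.8 CPM), a marker of the birth pole. Among 12 septum genes 8 were higher, with HOF1, INN1 and MYO1, all of the contractile ring, at log2 fold changes of 4.01, 3.22 and 2.98. Of 11 mitotic exit genes 7 were higher and 1 lower, led by DBF20 (4.38) and TEM1 (4.05), with DBF2 at 2.11. Of 12 G2/M genes, a list that shares members such as SWI5 and MYO1 with those above, 9 were higher, including CLB2 (3.14), and so were 4 of 9 histone genes, with HHF1 at 3.99, HTB2 at 2.31 and HTA1 at 1.28. These shares stand beside 43.2% of all genes at least 2-fold higher.

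Other lists held both higher and lower genes under AAS, beside 43.2% of all genes higher and 13.8% lower. Among 12 further wall glucanases and glucan transferases 4 were higher and 6 lower, with ACF2 at a log2 fold change of 3.78, SPR1 at 2.46 and SCW10 at -3.12. Among 12 G1/S genes 2 were higher and 3 lower, with CLN1, a G1 cyclin, at -3.32 and MCD1 and RAD27 at 2.27 and 2.10. Of the 6 genes that carry ASH1 mRNA or hold its translation, SHE2 was higher (1.61), and PUF6 and LOC1 were lower (-2.62 and -2.00). The list medians were -0.59, 0.49 and -0.17 in this order, against 0.74 over all genes.

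In hypotonic cells the G1/S and histone lists held more lower than higher genes, beside 30.1% of all genes lower and 21.2% higher. Of 12 G1/S genes 9 were at least 2-fold lower and 0 higher, led by CLB5, PCL1 and POL30 at log2 fold changes of -2.92, -2.61 and -2.14, and 5 of 9 histone genes were lower, with HTA2, HHF2 and HHO1 at -2.37, -1.96 and -1.53. Among the 16 other late mitotic and early G1 genes 6 were higher and 4 lower, with NIS1 at 4.13, SUN4, a wall protein of septation, at 2.66 and PIR3 at -2.11. Among the RAM genes 2 of 9, and among the septum genes 5 of 12, were higher with 0 lower in both lists, among them SWI5 (1.29), BNI4 (2.96) and SKT5 (1.52). Of 11 mitotic exit genes 3 were higher, TEM1 at 6.32 among them, and 4 lower, with NUD1 at -3.71 and BUB2 at -3.44. Of 12 G2/M genes 6 were higher and 3 lower, with BUD4 at 4.94, CLB2 at 4.02 and CLB1 at -3.05. Of the glucanase list 2 were higher and 5 lower, with SPR1 at 3.36, ACF2 at 2.47 and CRH1 at -2.29. A single ASH1 transport gene was higher, SHE2 at 3.49 (1.01 without the highest cells), and 3 were lower, with HEK2 at -3.34 and LOC1 at -2.89.

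In GS cells few list genes were read often enough, and their counts stand beside 44.1% of all genes higher and 26.2% lower. Of 6 histone genes 5 were at least 2-fold higher and 0 lower, with HHT1, HHF2 and HTA1 at log2 fold changes of 2.97, 2.38 and 1.64. Of the 7 glucanase genes compared 5 were lower and 0 higher, with CRH1 at -3.42, UTR2 at -7.25 and SCW10 at 0.09 ± 0.30 CPM in GS and 717.5 ± 1749 CPM in isotonic cells. CBK1, the kinase of the RAM network, had 1 read over all GS cells and 2492 reads over isotonic cells, with 1 of 21 GS and 7 of 17 isotonic cells holding a read, and SSD1, a target of that kinase, stood at 1.51. Of 6 other late mitotic and early G1 genes 4 were higher and 1 lower, with PIR1 at 4.22, PIR3 at 3.68 and CHS1 at -1.46. MOB1, a partner of mitotic exit kinases, had 3859 reads in GS cells and 1 in isotonic cells. CLN2 had 34 and 1927 reads, a log2 fold change of -6.20. Of 3 septum genes 2 were higher, and the 1 ASH1 transport gene and 1 G2/M gene compared stayed within 2-fold.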

How the data were processed

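Counts of uniquely aligned reads per gene were deposited for each single cell; the authors aligned reads with STAR 2.5.2 to SGD R64-2-1 and counted at default settings, for which the submitters' processing notes name HTSeq. Libraries were made with a Nextera XT or TruSeq DNA kit. Each file held 6420 genes, 92 ERCC entries and 5 summary rows, and reads with no feature or an ambiguous one had medians of 3.28 and 2.82 per 100 gene reads. ERCC and summary rows were set aside, and CPM were taken over the reads on genes of each cell. No 2 cells were identical. Cells were picked by pipette, so no doublet caller was run. The kept cells of batch 1 were read from the heads of the study's count table and those of batch 2 also from its clustering figure; 84 were kept and 33 left out.

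The log2 fold change is that of mean CPM with 1 CPM added, and called genes differ at least 2-fold and stand beside all genes with a read in 20% or more of the cells of a comparison. Named are the 8 genes, up to 3 genes per list and comparison that stay at least 2-fold without the highest cell of each group, and the 5 genes of most similar pattern. The genes and the 9 lists were chosen with earlier results of these data known. A gene that stands in 2 of the lists was counted in them but is not reported here. Alternatives were pseudocounts of 0.1 and 10 CPM, no filter, summed reads, TMM factors (edgeR 4.0.16), DESeq2 1.42.0 size factors, mean log2 values, thinning, other sets of cells and other levels of detection. The measures were tested on simulated data. Gene positions and upstream sequence are from RefSeq R64. Python 3.11.15, NumPy 2.4.6, pandas 2.3.3, SciPy 1.17.1, matplotlib 3.10.9 and R 4.3.3 were used.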

Additional observations from a re-analysis of the deposited data

Results flagged for a closer look

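Several cells that the study left out held more of a separation gene than any isotonic cell kept in the same batch. In batch 1, the AAS cell D95X held 160 CPM of EGT2, against 157 CPM in the kept isotonic cell A23. The left-out isotonic cell A47 held 1797 CPM of CTS1 from 9024 reads, against 377 CPM in A23. DSE1 stood at 63.2 CPM in the left-out isotonic cell A44 and at 63.3 CPM in G36, both above the 49.5 CPM of A26. A44 carried 7 of the 8 genes at 10 CPM or more and G36 carried 4, whereas none of the 7 kept isotonic cells with names in E or G carried more than 1.

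In batch 2, left-out GS cells gave high CPM from few reads. Y208 held 1456 CPM of CTS1 from 23 reads, against 797 CPM in the kept isotonic cell Y719. Y212 held 3439 CPM of ASH1 from 17 of its 4943 reads on genes, against 33.5 CPM in Y703. Y502 held 69.2 CPM of AMN1 from 71 reads, against 22.4 CPM in Y701. These cells enter no comparison above.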

How the results depend on the processing

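Of the values for single genes under the alternatives, 33 had another sign than the reported value, 8 of them from a value of at least 2-fold and 25 from a value within 2-fold. For AAS against isotonic cells the count at least 2-fold higher was 1 with a pseudocount of 10 CPM, with TMM or DESeq2 factors and against isotonic names in A, 4 by mean log2 values and 6 against names in E or G. The count at least 2-fold lower was 2 over all mapped cells and in AAS names with X, 3 with TMM factors and against names in A, 4 with DESeq2 factors, and 0 by mean log2 values and without the highest cells. TMM and DESeq2 factors moved the median of all genes to 0.09 and 0.01, against 0.74. SCW11 turned to 0.94 by mean log2 values, 1.06 without the highest cells and 0.77 against names in A. The medians of all genes in these settings were 1.97, 1.24 and 0.80, each above SCW11. Against names in E or G the median of the 8 genes was 4.43, or 6.29 with the 4 genes at 0 reads set at their bounds. The median of all genes was 1.24 there, and 0.37 for hypotonic cells against names in E or G. For hypotonic cells, only names in E or G changed the counts by over 1.5 times, to 5 higher and 1 lower, with a median of 4.35 (6.42 with bounds), EGT2 at 3.65 and DSE2 at 0.47. For GS cells, mean log2 values left 0 higher and 0 lower with DSE2 at -0.064, leaving out the highest cells left 1 lower with ASH1 at 0.16, and all 47 GS cells gave a median of 0.93 with ASH1 at 4.65. Cells with at least 4 of the 8 genes numbered 23 at 10 CPM, 32 at 1 read and 14 at 50 CPM, with left-out cells counted. Of the 5 genes of similar pattern, 2 were shared when group means alone were removed and 2 over all 51 cells. No paired analysis was possible because cells carry no shared numbers. Where these changes come from was not tested. Breadth limits batch 2 most, with medians of 1332 genes with a read in kept GS cells and 1047 in kept isotonic cells. Kept isotonic cells there had as few as 14245 reads on genes.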

Other observations

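The breadth of single cells can be read from 2 AAS cells that lacked the separation genes. D97X had 2820 genes with a read and D26X had 4663, and neither carried any of the 8 at 10 CPM. D26X held no read of SWI5, and 9 of the 16 other genes of late mitosis and early G1 were at 10 CPM or more in it, with 9 of 12 G1/S genes and 4 of 12 G2/M genes. In D7 the picture was the other way round, with 1 of 12 G1/S genes, 12 of 12 G2/M genes and 3 of the 8 separation genes (SCW11, DSE2 and ASH1). D93X, which had the highest DSE1 and SWI5 levels of the AAS cells, held 2 of 12 G1/S and 10 of 12 G2/M genes. In the hypotonic cell F3X, with 7 of the 8 separation genes, 4 of 12 G1/S, 9 of 9 histone and 7 of 12 G2/M genes were at 10 CPM or more. These counts stand beside the share of all genes at 10 CPM or more in each cell. It was 60.5% in D26X, 64.4% in D7, 49.7% in D93X and 69.6% in F3X. No cell was assigned a phase from these counts.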
